A study of Mus musculus with 6 samples.

Results

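Besides the core factors, 8 further genes often serve as markers of pluripotent cells, namely Dppa3, Dppa5a, Tcl1, Utf1, Fbxo15, Gdf3, L1td1 and Sall4. They were taken by name, and each was found at 1 locus among the 49377 gene names of the deposited tables. RNA was sequenced from mouse embryonic stem cells, which are derived from the blastocyst, in 3 groups of 2 libraries. The first group received 1 µM of 1α,25-dihydroxyvitamin D3 (VD3), the active hormone, and 100 µM MM-401, an inhibitor of the histone methyltransferase MLL1, for 5 days. The second received VD3 alone at the same concentration and for the same time, and the third was untreated. All libraries came from C57BL/6J cells with the genotype Mll1fl/fl; Cre-ER TM, a floxed Mll1 with an inducible Cre. The labels name no tamoxifen, and no group received MM-401 alone. Culture was on fibroblast feeders with leukemia inhibitory factor, which holds the undifferentiated state.

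Both libraries of a group stand in 1 pooled column, so the differences have no replicate check and no p-value is given. The unit is FPKM, a fragment count scaled for transcript length and sequencing depth, which can be set side by side between genes. Each value carries the authors' lower and upper confidence bound, whose level is not given. For a gene name with several loci, the bounds were added like the values, so they are not the authors' interval for the sum. The pools held 73292511 (VD3 plus MM-401), 73383193 (VD3) and 62081406 (untreated) estimated counts over loci with a valid status. Utf1 had the same FPKM per count in each pool, so the counts appear to share the depth scale of FPKM. These totals therefore need not reflect sequencing depth. All 7 stem cell markers (Pou5f1, Sox2, Nanog, Esrrb, Zfp42, Tdgf1 and Klf4) were at 26.4 FPKM or more in every pool. Of 20 fibroblast markers for the feeder cells, 9 were below 1 FPKM in every pool, including the collagen genes Col1a1 and Col1a2, and Lum was listed at 0. Their summed level was 694 FPKM with VD3 plus MM-401, 710.2 with VD3 and 398 in untreated cells, most of it from Vim, S100a6, Tagln and Fn1, and its part in the values below was not tested. In bulk RNA, fewer cells of a type and less RNA per cell cannot be told apart.

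Embryonic stem cells keep their state through a network of transcription factors around OCT4, SOX2 and NANOG. The genes described here lie downstream of or beside that network and are silenced as cells differentiate, so they can report the undifferentiated state. They do different work. Dppa5a and L1td1 encode RNA-binding proteins, and Utf1, Sall4 and Dppa3 encode nuclear proteins that act on chromatin and DNA methylation. Gdf3 encodes a secreted ligand of the TGF-beta family, Tcl1 a coactivator of the AKT kinases, and Fbxo15 an F-box protein of a ubiquitin ligase.

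Near-identical copies bear on how far 2 of these genes can be measured, so their coding sequences are shown beside those of the copies. A search of the GENCODE vM21 transcripts for other genes with at least 90% identity over at least 200 bases found 9 for Dppa5a, 2 for Dppa3, 1 each for L1td1 and Sall4, and 0 for Tcl1, Utf1, Fbxo15 and Gdf3. The first 150 coding bases of Dppa5a (chromosome 9, 78367052 to 78368177, minus strand, GRCm38) are set against the processed pseudogenes Gm6083 (chromosome 5, 29538153 to 29538509) and Gm6798 (chromosome X, 8654465 to 8654824). Capitals mark the bases at which a copy differs from Dppa5a, and in the Dppa5a line the bases at which either copy differs.
Dppa5a: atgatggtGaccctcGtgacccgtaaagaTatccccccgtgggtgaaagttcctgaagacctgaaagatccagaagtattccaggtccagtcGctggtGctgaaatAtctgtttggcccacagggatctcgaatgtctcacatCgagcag
Gm6083: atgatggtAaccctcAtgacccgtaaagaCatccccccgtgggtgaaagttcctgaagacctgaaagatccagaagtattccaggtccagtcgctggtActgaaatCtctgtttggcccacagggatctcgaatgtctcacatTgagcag
Gm6798: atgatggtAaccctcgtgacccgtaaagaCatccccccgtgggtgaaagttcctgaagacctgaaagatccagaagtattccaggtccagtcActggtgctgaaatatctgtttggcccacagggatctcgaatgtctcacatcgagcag
Gm6083 differed at 6 of these bases and Gm6798 at 3. Over the 354 coding bases of Dppa5a, Gm6083 aligned at 96.9% identity with a longest identical run of 73 bases, and Gm6798 at 97.1% with a run of 109 bases.

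For Dppa3 (chromosome 6, 122626410 to 122630272, plus strand), coding bases 3 to 152 are set against the transcribed processed pseudogene Dppa3-ps (chromosome X, 37625647 to 37626097), with capitals again at the bases that differ.
Dppa3: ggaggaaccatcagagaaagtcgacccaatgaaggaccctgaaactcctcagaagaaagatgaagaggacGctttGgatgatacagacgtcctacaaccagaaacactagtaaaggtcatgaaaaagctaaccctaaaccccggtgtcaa
Dppa3-ps: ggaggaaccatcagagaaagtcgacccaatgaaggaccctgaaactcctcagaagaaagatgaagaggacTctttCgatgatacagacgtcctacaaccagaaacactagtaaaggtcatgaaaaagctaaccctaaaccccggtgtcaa
The pair differed at 2 of these 150 bases and at 8 of 448 aligned coding bases, an identity of 98.2%. The longest run without a difference was 86 bases. A fragment that falls within such a run cannot be placed from its sequence alone, and how the authors shared such fragments is not given in the sources used here.

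All 8 genes were expressed in every pool, and their levels spanned 16.5 to 2088 FPKM with VD3 plus MM-401, 16.0 to 959 with VD3 and 15.8 to 628 in untreated cells. Dppa5a was the highest of them in each pool. It stood above 99.7% (VD3 plus MM-401), 99.2% (VD3) and 99.1% (untreated) of the protein-coding genes with at least 1 FPKM. Utf1, L1td1 and Sall4 followed. They lay above 92.0% or more of these genes in every pool, and Utf1 and L1td1 changed places between treated and untreated cells. Gdf3 was in the middle, and Fbxo15, Dppa3 and Tcl1 were the lowest, the last 2 close to the median gene. Neighbours in this order mostly had overlapping bounds. The exceptions were Dppa5a over Utf1 and Gdf3 over Fbxo15, which were apart in both treated pools. In untreated cells every pair of neighbours overlapped.

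**Figure D1:**
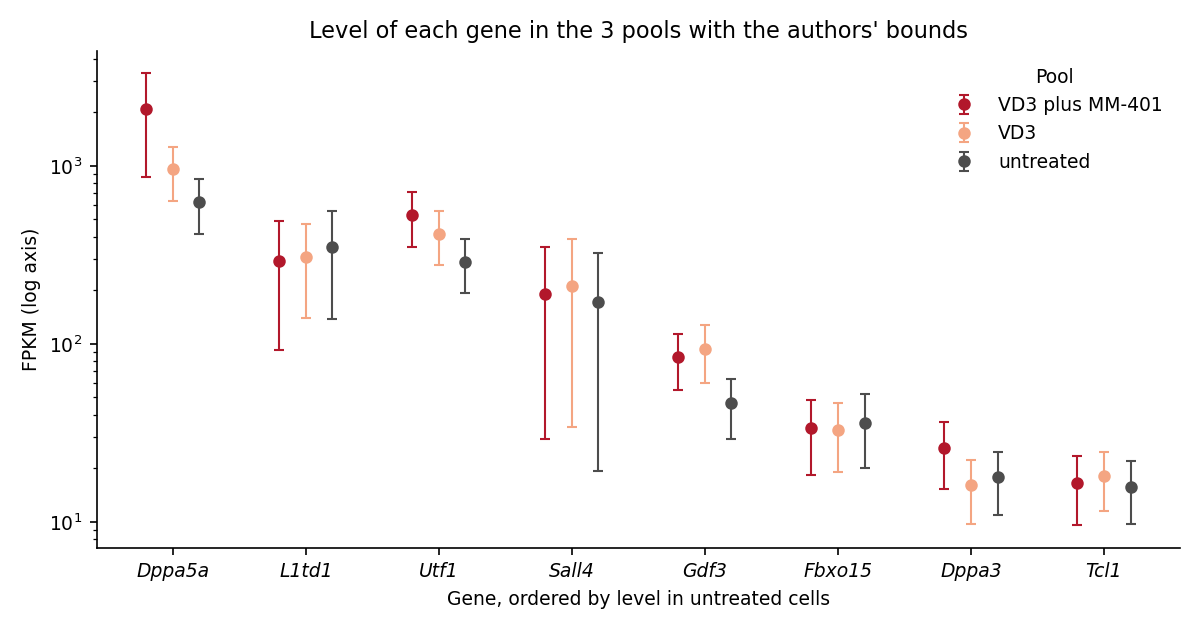
FPKM of the 8 genes on a log axis in the VD3 plus MM-401, VD3 and untreated pools; points are the pooled values and bars the authors' confidence bounds. Dppa5a is highest at 2088, 959 and 628 FPKM, and it is the only one of the 8 whose VD3 plus MM-401 bounds lie apart from its untreated bounds.

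Dppa5a showed the largest difference among the 8 genes. It encodes a KH-domain RNA-binding protein found in pluripotent and germ cells. It was at 2088 FPKM with VD3 plus MM-401 (bounds 866 to 3309), 959 FPKM with VD3 (636 to 1282) and 628 FPKM in untreated cells (417 to 840). The VD3 plus MM-401 value was thus 3.32 times the untreated one, a log2 difference of 1.73 with bounds apart, and 2.18 times the VD3 value, with bounds overlapping. The VD3 value was 1.53 times the untreated one, with bounds overlapping. By estimated count the locus held 41667 (VD3 plus MM-401), 28093 (VD3) and 18312 (untreated), which puts the ratio of VD3 plus MM-401 to untreated at 2.28 and that to VD3 at 1.48. The difference was thus smaller by count than by FPKM wherever the VD3 plus MM-401 pool entered. With counts scaled further, by their total or by the median ratio, the log2 difference from untreated was 0.95 or 0.92, below 2-fold. Such scaling comes on top of the depth scale that the deposited counts appear to share with FPKM. The locus as deposited also carries the name of Gsta2, a glutathione transferase gene 11.3 kb away, and spans 122697 bases (chromosome 9, 78245501 to 78368197). That span also covers Dppa5b (78245550 to 78246135) and Dppa5c (78271998 to 78272583), unprocessed pseudogenes among the 9 copies with 96.3% identity over 299 bases. The locus does not carry their names. Whether the Dppa5a values include fragments from them was not tested.

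The copies of Dppa5a were listed at high levels as well. Gm6083 was at 924 FPKM with VD3 plus MM-401, 608 with VD3 and 475 in untreated cells. Gm6798 was at 876, 907 and 712 FPKM in the same pools. The locus that joins the copy Gm15310 with Pigp, a gene of GPI anchor synthesis, was at 1089, 838 and 662 FPKM. Gm6083 thus followed the order of Dppa5a over the pools, whereas Gm6798 was as high with VD3 alone as with both agents. Summed over Dppa5a, Gm6083 and Gm6798, the estimated count was 61755 with VD3 plus MM-401, 45050 with VD3 and 31599 in untreated cells. Against untreated cells this sum was 1.95 times higher with VD3 plus MM-401 (log2 0.97) and 1.43 times higher with VD3 (log2 0.51). The share of the sum at the Dppa5a locus was 67.5% with VD3 plus MM-401, 62.4% with VD3 and 58.0% in untreated cells. Whether fragments at these loci came from Dppa5a transcripts or from the copies was not tested.

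**Figure D2:**
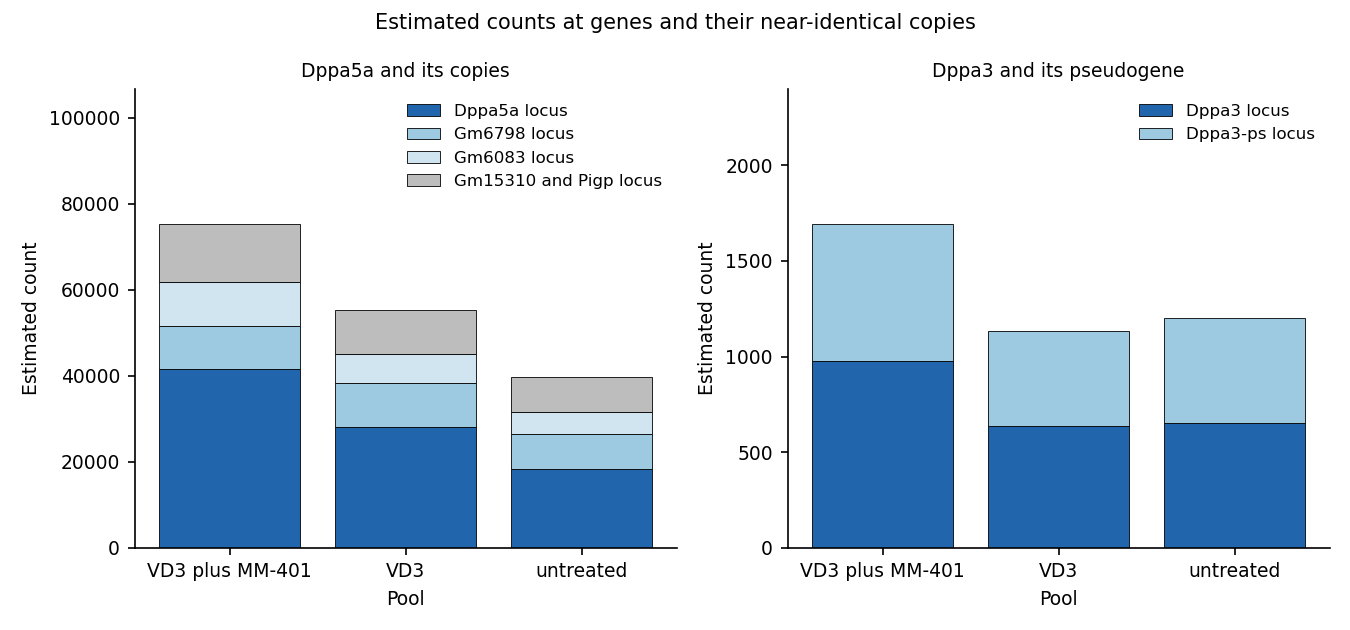
Estimated counts at Dppa5a with Gm6798, Gm6083 and the locus of Gm15310 and Pigp (left) and at Dppa3 with its pseudogene (right), stacked, in the VD3 plus MM-401, VD3 and untreated pools. Summed over Dppa5a, Gm6083 and Gm6798 the count is 61755, 45050 and 31599, and Dppa3 holds 57.8%, 56.1% and 54.4% of the count it shares with Dppa3-ps.

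L1td1 (chromosome 4, 98726734 to 98738480), an RNA-binding protein derived from the first open reading frame of a LINE-1 element, did not share this pattern. It was at 291 FPKM with VD3 plus MM-401 (bounds 92.2 to 489), 306 with VD3 (141 to 472) and 349 in untreated cells (138 to 559). The bounds overlapped widely. By count the 3 pools were nearly level, at 46003, 45206 and 46533, so its FPKM ratio of 0.834 between VD3 plus MM-401 and untreated stands beside a count ratio of 0.989. The list of its RNA partners holds Lin28a, which blocks maturation of let-7 microRNAs, and Trim71. Lin28a was at 186 FPKM with VD3 plus MM-401, 257 with VD3 and 117 in untreated cells, and its VD3 bounds lay above the untreated ones.

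Utf1 (chromosome 7, 139943789 to 139945112), a chromatin-bound protein that limits Polycomb loading at bivalent genes, was higher in both treated pools. It was at 531 FPKM with VD3 plus MM-401 (bounds 349 to 713), 416 with VD3 (276 to 556) and 290.2 in untreated cells (194 to 387). The VD3 plus MM-401 value was 1.83 times and the VD3 value 1.43 times the untreated one, with bounds overlapping in both cases. The count gave the same ratios. Of the Polycomb genes Eed, Suz12 and Ezh2, Suz12 was past 2-fold, lower with VD3 plus MM-401 (29.6 FPKM) and with VD3 (25.7) than in untreated cells (132), with bounds apart from untreated in both.

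Sall4 (chromosome 2, 168748332 to 168767943), a zinc finger factor that recruits the NuRD deacetylase complex, had the widest bounds for its level. It was at 191 FPKM with VD3 plus MM-401 (bounds 29.1 to 352), 211 with VD3 (34.2 to 387) and 171 in untreated cells (19.3 to 323). The bounds overlapped for every pair of pools. Among its relatives, Sall1 was at 14.8, 14.6 and 22.0 FPKM in the same pools, while Sall2 and Sall3 were below 6 FPKM in each. Of 9 NuRD genes, 8 were higher than untreated with VD3 plus MM-401 and 8 with VD3, where 66.1% and 71.7% of all genes were higher, and 0 passed 2-fold in either comparison. The exceptions to that direction were Chd4, at 118 FPKM with VD3 plus MM-401 and 127 in untreated cells, and Hdac2, at 84.5 with VD3 and 126 in untreated cells. Hdac2 was also the NuRD gene past 2-fold between VD3 plus MM-401 (192 FPKM) and VD3, with overlapping bounds. By estimated count it was short of 2-fold there, at 14502 against 8567.

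Dppa3, also called Stella, protects the maternal genome from demethylation in the zygote and keeps UHRF1, a cofactor of the methyltransferase DNMT1, off chromatin. It was at 26.0 FPKM with VD3 plus MM-401 (bounds 15.4 to 36.6), 16.0 with VD3 (9.72 to 22.3) and 17.8 in untreated cells (10.9 to 24.7). Its level was thus highest with both agents, at 1.46 times untreated and 1.62 times VD3 alone, with bounds overlapping in each comparison. Dppa3-ps was listed above Dppa3 by FPKM in every pool, at 40.6, 28.2 and 31.1. By estimated count it was below Dppa3 in each, at 714, 497 and 548 against 978, 634 and 655. Summed over both loci, the count was 1692 with VD3 plus MM-401, 1131 with VD3 and 1202 in untreated cells, and the ratio to untreated was 1.41 for VD3 plus MM-401 and 0.941 for VD3. Of 5 genes around DNA methylation, Ehmt2, a histone H3K9 methyltransferase, passed 2-fold upward with VD3 plus MM-401 (134 FPKM, against 61.9 in untreated cells). Tet2, a 5-methylcytosine oxidase, passed it downward with VD3 (7.98 FPKM, against 27.5), both with overlapping bounds. By estimated count Ehmt2 was short of 2-fold (18391 against 12716), while Tet2 was still past it (3568 against 10441). Uhrf1 was at 143 FPKM with VD3 plus MM-401, 251 with VD3 and 175 in untreated cells.

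Gdf3 (chromosome 6, 122605403 to 122610087, minus strand) was the gene with the largest difference under VD3 alone. Its product signals like Nodal and can antagonise BMPs. It was at 84.0 FPKM with VD3 plus MM-401 (bounds 55.1 to 113), 93.9 with VD3 (60.5 to 127) and 46.3 in untreated cells (29.4 to 63.2). VD3 was 2.03 times untreated, a log2 difference of 1.00 just at the 2-fold line, and the lower bound with VD3 lay just under the upper bound of untreated cells. By count as deposited, which ran to 12424 with VD3 and 6056 in untreated cells, the ratio was 2.05. It was below 2-fold with counts scaled by total (log2 0.80) or by the median ratio (0.70), after centring on the median gene (0.64) and after adjustment for GC content and length (0.58). VD3 plus MM-401 was 1.81 times untreated and 0.894 times VD3, with bounds overlapping.

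Against untreated cells, genes of the same signalling branch differed less than Gdf3. Nodal was at 67.9 FPKM with VD3 plus MM-401, 71.2 with VD3 and 50.7 in untreated cells. The antagonist Lefty1 was at 78.3, 61.1 and 72.5 FPKM, and Lefty2 at 20.6, 20.6 and 22.5. The co-receptor Tdgf1 was at 670.2, 527 and 411 FPKM. Of 7 signalling partners of Gdf3 with at least 5 FPKM, 0 passed 2-fold in any comparison. Smad3 was at 8.23 FPKM with both agents against 16.4 with VD3, with overlapping bounds and counts of 1362 against 2209. Its log2 difference there was -0.91, farther from 0 than the -0.16 of Gdf3.

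Gdf3 and Dppa3 lie 16.3 kb apart in the cluster that ends with Nanog, itself 77.2 kb beyond Dppa3. The neighbours did not differ alike. With VD3 against untreated, the log2 differences were 0.11 for Apobec1, 1.00 for Gdf3, -0.14 for Dppa3, 0.27 for Nanog and 0.23 for Slc2a3, in their order along the chromosome. With VD3 plus MM-401 against untreated they were -0.10, 0.85, 0.52, 0.41 and -0.27. Gdf3 was the highest of the 5 in both comparisons, and the bounds of all 5 overlapped throughout.

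Tcl1 (chromosome 12, 105216750 to 105222793), which binds AKT and raises its kinase activity, was level across the pools. It was at 16.5 FPKM with VD3 plus MM-401 (bounds 9.58 to 23.4), 18.1 with VD3 (11.5 to 24.6) and 15.8 in untreated cells (9.77 to 21.8). The 5 genes of the adjoining Tcl1b cluster were listed at 0 in every pool. The kinase genes Akt1 and Akt2 were at 35.1 and 14.7 FPKM with VD3 plus MM-401, 45.4 and 18.9 with VD3, and 31.9 and 13.0 in untreated cells.

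Fbxo15 (chromosome 18, 84934782 to 84981473, plus strand) is a classical reporter of reprogramming and a target of OCT4 and SOX2, although stem cells do not need it. It was at 33.5 FPKM with VD3 plus MM-401 (bounds 18.4 to 48.7), 32.8 with VD3 (19.0 to 46.6) and 36.1 in untreated cells (20.1 to 52.1). Its ratio to untreated was 0.929 and 0.909 in the treated pools, with bounds overlapping almost fully. Of the ligase subunits that F-box proteins join, Rbx1 was at 99.4 FPKM with VD3 plus MM-401, 68.6 with VD3 and 34.0 in untreated cells. Its bounds, added over 2 loci, were apart between VD3 plus MM-401 and untreated. Cul1 was at 298, 114 and 216 FPKM, with overlapping bounds. By estimated count Cul1 was instead highest in untreated cells, at 14839, against 11524 with VD3 plus MM-401 and 8511 with VD3. Of the F-box genes set beside Fbxo15, Fbxo6 was at 33.1 FPKM with VD3 plus MM-401, 42.8 with VD3 and 26.8 in untreated cells. Fbxo2 was below 10 FPKM in each pool.

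Read as a group in the comparison of VD3 with untreated cells, the 8 genes did not stand apart from other genes. All 8 had at least 5 FPKM in the higher pool, the minimum for a gene to enter. Gdf3 alone was called higher, meaning 2-fold on the scale of log2(FPKM + 1), so 1 of 8 (12.5%) compares with 3.54% of the 10911 genes. That 1 call was lost under both scalings of the counts, centring and the adjustment for composition. No gene of the 8 was called lower, against 8.7% of all, and none was higher with bounds apart, against 0.926% of all. The median difference of the 8 was 0.24, below the 0.36 of the median gene, and 5 were above 0 while 3 were above the median gene.

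For VD3 plus MM-401 against untreated, 1 of 8 genes, Dppa5a, was called higher, a share of 12.5% beside 13.4% of 10966 genes. This call was lost under both scalings of the counts and the adjustment for composition. None was called lower, against 6.24%. Dppa5a was also higher with bounds apart, which held for 4.26% of all genes. The median difference of the 8 was 0.34, and that of all genes 0.27. Tcl1, Fbxo15, L1td1 and Sall4 were below the median gene, and Dppa3, Gdf3, Utf1 and Dppa5a above it. Both comparisons use the same untreated pool.

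Between VD3 plus MM-401 and VD3, which addresses what the inhibitor adds, Dppa5a alone was called higher (log2 1.12), against 4.67% of 10717 genes. By count as deposited (0.57) and after adjustment (0.54) it was not. None was lower, against 2.02%, and none was higher with bounds apart, against 0.83%. Dppa3 came next at 0.66 and Utf1 at 0.35. The other 5 genes lay between -0.16 and 0.03, and the median of all 8 was -0.02, beside 0.02 for the median gene. This comparison shares the VD3 pool with the first.

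**Figure D3:**
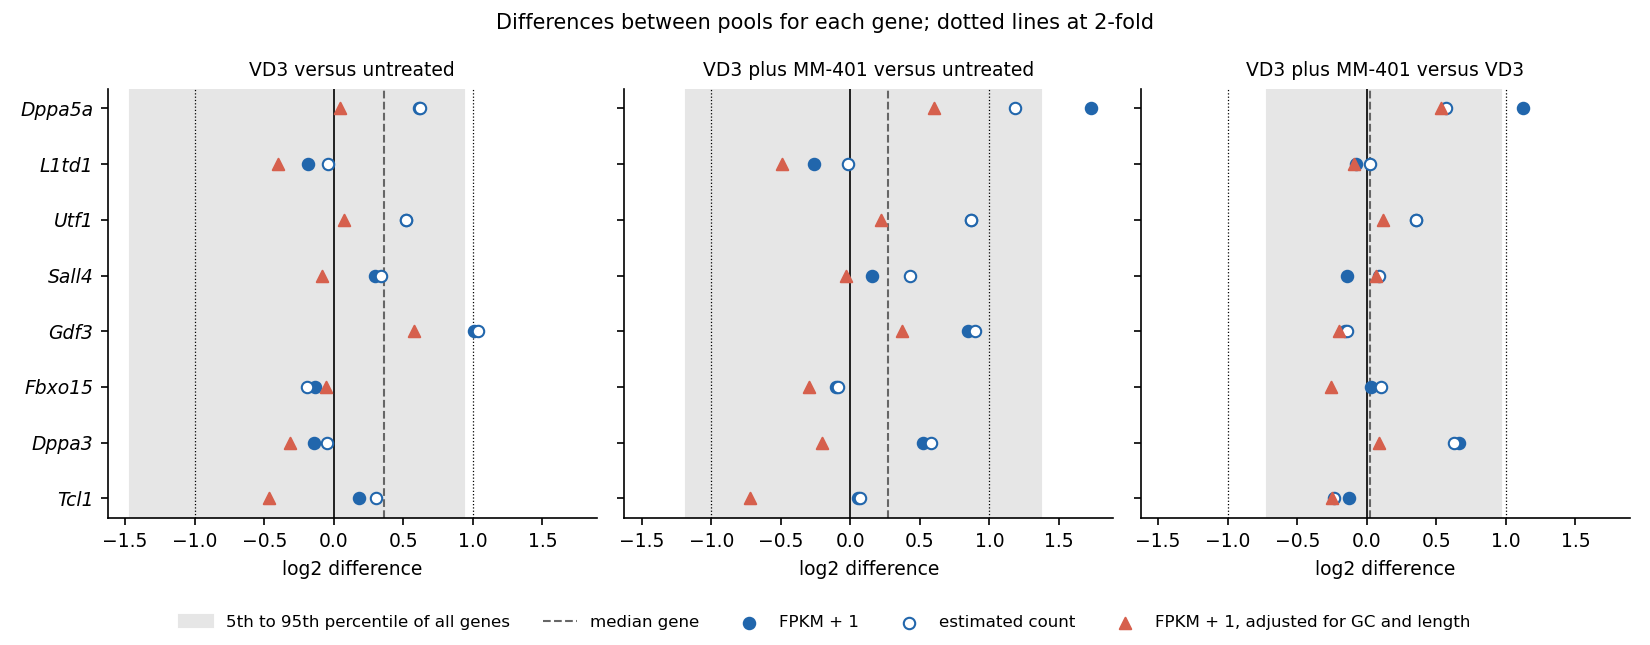
Log2 differences of the 8 genes in the 3 comparisons, from FPKM + 1 (filled circles), from estimated counts as deposited (open circles) and from FPKM + 1 adjusted for GC content and length (triangles). The adjusted values are also centred on the average gene. Grey marks the 5th to 95th percentile of all genes and the dashed line their median; Dppa5a at 1.73 with VD3 plus MM-401 against untreated drops to 1.19 by count and to 0.60 after adjustment.

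Part of the spread among the 8 genes went with the composition of their transcripts. Over 8797 coding genes, which do not stand for replicates, the VD3 difference had a Spearman correlation of 0.57 with GC content and -0.41 with length. For VD3 plus MM-401 these were 0.41 and -0.57 over 8817 genes, again against the same untreated pool. Dppa5a has the shortest transcript of the 8, at 619 bases, followed by Dppa3 with 833 and Utf1 with 1227, while Sall4 has the longest at 5073. Utf1 is the richest in GC, at 63.5%, and Fbxo15 (44.1%) and Dppa3 (45.3%) are the poorest.

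After a regression on both properties, 0 of the 8 genes was past 2-fold in any comparison. Its residuals also take out the shift of the average gene, so part of each change is that shift and not composition. Gdf3 kept the highest adjusted difference for VD3, at 0.58, and Dppa5a for VD3 plus MM-401, at 0.60 against untreated and 0.54 against VD3. Utf1 was left with 0.07 for VD3 and 0.22 for VD3 plus MM-401, where centring on the median gene alone gave 0.15 and 0.60. Dppa3 stood at -0.20 for VD3 plus MM-401 against untreated after adjustment, where its unadjusted difference was 0.52, or 0.25 when centred on the median gene. Tcl1 became the lowest for VD3 (-0.47) and for VD3 plus MM-401 (-0.72) against untreated, the latter farther from 0 than the value of Dppa5a. What underlies the relation with GC content and length was not tested.

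**Figure D4:**
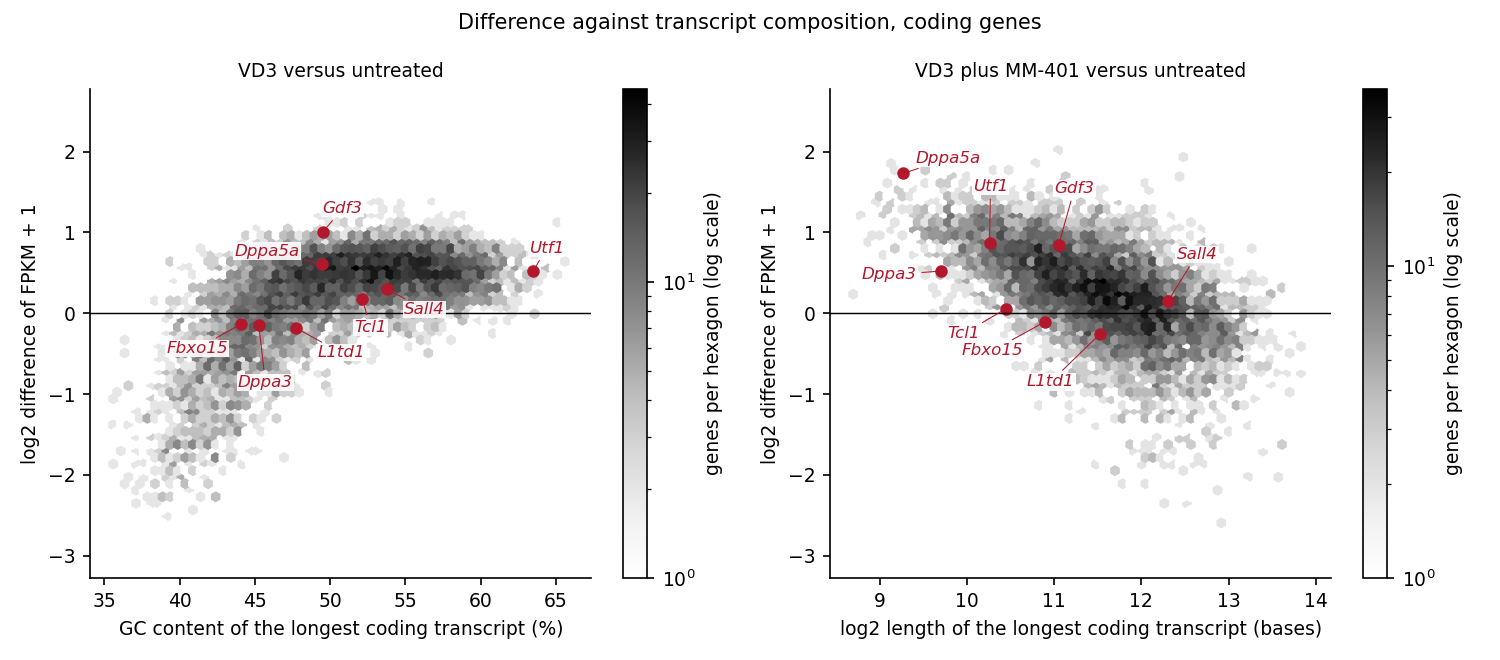
Log2 difference of FPKM + 1 for VD3 against untreated by GC content (left) and for VD3 plus MM-401 against untreated by log2 transcript length (right); hexagons count protein-coding genes and red points are the 8 genes. Genes outside the drawn range are left out; Gdf3 (1.00, left) and Dppa5a (1.73, right) are the highest of the 8.

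FPKM and count did not always give the same difference, because the FPKM credited to 1000 counts varied for some genes. For Utf1, which has 1 coding transcript in the annotation, it was 13.8 FPKM in each pool. The deposited counts thus appear to be scaled for depth already, and scaling them by total or by median ratio is a further step. For Dppa5a, also with 1, it was 50.1 with VD3 plus MM-401, 34.1 with VD3 and 34.3 in untreated cells. The Dppa5a locus also carries the name of Gsta2 and spans 122697 bases, against 1327 for Utf1. Its estimate thus need not rest on that 1 transcript alone. L1td1 had 6.32, 6.78 and 7.49, and Sall4 6.97, 8.20 and 8.44, both with several annotated transcripts. The ratio depends on the transcript length that the estimate assigns to a locus.

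A wider list of 30 pluripotency network genes gives the setting. Of its 29 members with at least 5 FPKM, 21 were higher than untreated with VD3 plus MM-401 and 22 with VD3 alone, beside 66.1% and 71.7% of all genes. Past 2-fold with VD3 were Lin28a (log2 1.13), Tdh (1.05) and Fgf17 (1.23), where 3.54% of all genes were called higher. Past it with VD3 plus MM-401 were Nr0b1 (1.15), Dnmt3l (1.04) and Fgf17 (1.43), where 13.4% of all genes were. By count as deposited, Nr0b1 (9727 against 6073) and Dnmt3l (26969 against 14777) were short of 2-fold, while the others stayed past it. Rif1 was the lower one in both, at 10.9 FPKM with VD3 plus MM-401, 10.4 with VD3 and 73.4 in untreated cells. Of all genes, 6.24% (VD3 plus MM-401) and 8.7% (VD3) were called lower. Between VD3 plus MM-401 and VD3, 0 of 29 passed 2-fold in either direction, beside 4.67% of all genes higher and 2.02% lower. The median difference of the list was 0.46 for VD3 and 0.32 for VD3 plus MM-401 against untreated.

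Each of the 8 genes was matched with the list gene nearest to it over both differences from untreated, which rest on 3 pools only. Fbxo15 paired with Nr5a2 at a distance of 0.01 log2 units, Utf1 with Klf2 at 0.03, and L1td1 with Klf4 at 0.09. Gdf3 paired with Tdh (0.12), a threonine dehydrogenase at 196 FPKM with VD3 plus MM-401, 208 with VD3 and 100.2 in untreated cells. Sall4 paired with Fgf4 (0.10), Dppa3 with Morc1 (0.12) and Tcl1 with Klf5 (0.12). Dppa5a had no close partner, its nearest being Nr0b1 at 0.61.

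Genes named or placed near the Dppa genes varied in level. Dppa2 and Dppa4, which activate genes of the early embryo, were at 58.0 and 101 FPKM with VD3 plus MM-401, 62.6 and 89.6 with VD3, and 43.6 and 62.5 in untreated cells, with overlapping bounds. Ooep, a KH-domain gene 7.93 kb from Dppa5a, was at 19.1 FPKM with VD3 plus MM-401, 16.8 with VD3 and 15.9 in untreated cells. The locus that carries Khdc3, another KH-domain gene, together with Rsl24d1 was at 151, 95.5 and 61.6 FPKM, with bounds apart between VD3 plus MM-401 and untreated. The level of Ooep thus differed less between pools than that of its neighbour Dppa5a.

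RefSeq promoter windows of 250 bases before to 50 after the start (GRCm38.p6) were matched for 3 of the 8 genes, Utf1, L1td1 and Tcl1. Their GC content was 62.0%, 58.7% and 56.7%, above the median of 52.7% over all 32851 windows, with 17, 14 and 11 CG dinucleotides against a median of 7. On either strand, none of the 3 windows held the octamer ATGCAAAT (1.74% of all windows), the SOX core CATTGT (12.6%), the ESRRB site TCAAGGTCA (0.423%), which contains AGGTCA, or the E-box CACGTG (7.15%). None held a direct repeat of AGGTCA with 3 bases between its copies, a form of vitamin D response element found in 0.006% of all windows.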

How the data were processed

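Per the submitters' processing notes, TopHat2 2.1.1, SAMtools 1.5, Cufflinks 2.2.1 and the build mm10 were used; their order, settings and strand handling are unknown here. The authors deposited FPKM with confidence bounds and, in a companion table, an estimated count per locus with its variance, which need not be whole numbers. There is 1 pooled column per group. The VD3 column bears that name. The other columns were matched by the start of their names to the groups' titles, and the rest of those names is unexplained; another meaning would change every comparison.

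Of 62490 loci, 14 without a valid status were left out, and loci of 1 gene name were summed, their bounds included. The shares of all genes with bounds apart rest partly on such added bounds. Differences are log2 ratios with a pseudocount of 1 FPKM, so low genes are understated. A gene entered a comparison from 5 FPKM in its higher pool on, and 2-fold was the line for a call. The design foresaw no test on pooled columns. Reading GC content and length from the longest coding transcript of GENCODE vM21, differences were also taken as residuals of a regression with linear and squared terms, tested on simulated data. These residuals are centred on the average gene as well. Copies were searched with BLAST 2.17.0 and aligned with Biopython 1.88, a step chosen after seeing the data. The 8 genes and all lists were chosen with earlier results of these data known; every one of the 8 was named, with network genes past 2-fold or nearest in pattern and genes of most other lists. Coordinates count from 1. FPKM are printed as deposited, without centring.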

Additional observations from a re-analysis of the deposited data

How the results depend on the processing

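The numbers of the 8 genes past 2-fold, 1 in each comparison, kept under the 0.1 FPKM pseudocount, no minimum FPKM and the largest locus of each name. For VD3 against untreated the number was 0 with bounds apart, 0 after centring on the median gene, 0 with counts scaled by total or by median ratio, 0 after adjustment for GC content and length, and 2 at 1.5-fold. For VD3 plus MM-401 against untreated it was 0 with either scaling of the counts, 0 after that adjustment, 3 at 1.5-fold and 0 without Dppa5a. For VD3 plus MM-401 against VD3 it was 0 with bounds apart, 0 by count (scaled or as deposited), 0 after adjustment, 2 at 1.5-fold and 0 without Dppa5a. The share of all genes was taken only for the 2-fold calls of the main setting, with or without bounds apart. The numbers at 1.5-fold and under the other settings thus cannot be set against other genes. The median difference of the 8 genes became -0.12 for VD3 against untreated after centring, and -0.11 for VD3 plus MM-401 against untreated after adjustment. The cause was not tested. No called gene changed sign, and single differences kept their sign in 53, 51 and 50 of 58 values in these comparisons. Counts as deposited, leaving out Dppa5a and summing with copies were chosen after seeing the data. From the authors' count variances, the log2 count ratio of each of the 8 genes has a standard deviation of 0.34 to 0.43, and smaller count differences lie within it. It does not cover the differences of FPKM, whose bounds are wider for some genes. Sall4 in untreated cells had bounds of 19.3 to 323 around 171 FPKM, beside a standard deviation of 17.0% of its count. No paired analysis was possible because the libraries of a group share 1 column, and no library could be left out for the same reason.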

Other observations

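Dppa3 is also a germ cell gene, and other germ cell markers were measured beside it. Of 7 such genes, 5 had at least 5 FPKM in the higher pool of both comparisons with untreated cells, and 4 of these were lower in each, where 66.1% (VD3 plus MM-401) and 71.7% (VD3) of all genes were higher than untreated. Dazl, an RNA-binding protein of germ cells, was at 2.94 FPKM with VD3 plus MM-401, 1.85 with VD3 and 6.98 in untreated cells, with bounds apart from untreated in both. Sycp3, of the synaptonemal complex, was at 7.69, 6.73 and 17.4 FPKM, and the helicase gene Ddx4 at 11.8, 9.15 and 13.7. Mael, a piRNA pathway gene, was the higher one, at 14.4, 13.6 and 10.2 FPKM. The 8 markers of the 2-cell-like state were each below 1 FPKM in every pool. The summed level of 9 trophoblast markers was 243 FPKM with VD3 plus MM-401, 259.7 with VD3 and 176 in untreated cells, and that of 10 primitive endoderm markers 36.8, 61.2 and 50.2 FPKM. Krt18 held the largest part of the trophoblast sum, at 141, 145 and 84.3 FPKM in the same pools. Krt8 came next, at 54.7, 67.5 and 38.6, and the bounds of both genes overlapped. Of 6 trophoblast markers with at least 5 FPKM, 3 were higher and 3 lower than untreated in each of the 2 comparisons. Past 2-fold by FPKM among the trophoblast and primitive endoderm markers with at least 5 FPKM were trophoblast genes only, each with overlapping bounds and all lower. With VD3 against untreated it was the locus that joins Gata3 with 9230102O04Rik (log2 -1.64). Hand1 passed it with VD3 plus MM-401 against untreated (-1.16) and Krt7 with VD3 plus MM-401 against VD3 (-1.01). By estimated count the Gata3 locus was instead higher with VD3 (246) than in untreated cells (203). Hand1 (233 against 416) and Krt7 (1615 against 1974) were lower by count but short of 2-fold. The part of these markers in the values of the 8 genes was not tested.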
